A study of Mus spretus with 12 samples.

Results

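The genes described here are 37 mouse genes of fatty acid oxidation: the nuclear receptor gene Ppara, known targets of its protein, the enzymes of mitochondrial and peroxisomal beta-oxidation and a ketone body enzyme, Bdh1. They were taken by gene name from the arrays, where they held 54 of 59305 spots other than controls. All 37 were among the 18678 genes tested, and the probe used for each was well above background on all 12 arrays.

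In liver, fatty acids are activated to acyl-CoA, moved into mitochondria through the carnitine shuttle and shortened there by rounds of dehydrogenation, hydration, dehydrogenation and thiolysis. Very long and branched chains are first shortened in peroxisomes, and in fasting the acetyl-CoA is turned into ketone bodies. PPARA is activated by fatty acids, binds DNA with RXR and is best known in liver for switching on these genes together with Fgf21, Angptl4, Pdk4 and Vnn1.

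Liver RNA came from male Mus spretus of the inbred strain SPRET/EiJ, aged 22 months at sampling after 60 days of feeding. Each of 3 groups was measured on 4 one-colour arrays, and every group ate the same base diet with corn oil. The control group got no addition. The DDE group got 450 mg of p,p'-DDE, a long-lived metabolite of DDT, an insecticide, per kg of that diet. For the PXDDE group the DDE diet was combined with must of Pedro Ximenez grapes in the drinking water, holding 85 mg/L of polyphenols and 31 g/L of glucose and fructose in equal parts. The must therefore added sugar as well as polyphenols, and no group had must alone. The series asks how the must altered the effect of p,p'-DDE on the liver. The design text gives 4 mice for the control and must groups, but the labels do not tie an array to an animal. The p-values therefore measure only the spread between these arrays, which may be technical.

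Levels are log2 processed signals minus the log2 75th percentile of the same array, so a level of 0 is that percentile. A log2 change of 1 is a doubling of the signal. A gene was called higher or lower where the adjusted p of the limma fit was under 0.05. It called many genes: 50.3% of all genes in DDE against control, 49.9% in PXDDE against DDE and 70.9% in PXDDE against control. The 75th percentile itself was 535 ± 32.2 intensity units (SD, n = 4) in control, 611 ± 46.9 in DDE and 702 ± 7.63 in PXDDE. Each comparison was therefore repeated under 5 other scalings of the arrays. A call is said to hold where the gene was called in the same direction under all 6 scalings. The comparisons share arrays, so a high or low DDE group moves both comparisons it enters.

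Markers of other tissues differed between the groups too. All 16 skeletal muscle markers were lower in DDE than in control, with a median log2 change of -1.31. All 14 pancreatic acinar markers were higher in PXDDE than in DDE, with a median of 2.69. Of 9 adrenal cortex markers, 8 were lower in DDE than in control and 8 higher in PXDDE than in DDE. Of 15 hepatocyte markers, 2 were higher and 4 lower in DDE than in control, and 2 were higher and 7 lower in PXDDE than in DDE, but none of these hepatocyte falls was called under all 6 scalings. The summed pancreatic level lay between 8.75 and 8.81 on the control arrays, between 8.35 and 8.52 on the DDE arrays and between 10.96 and 11.03 on the PXDDE arrays. Whether RNA of other tissues was present, and any part of it in the changes of the fatty acid genes, was not tested.

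The probes below belong to some of the genes with large changes or to close paralogs. Not every gene with a large change is shown, and Pdk4 and Angptl4 are left out. They are stretches of the 60-base probes in the deposited scanner files, read 5′ to 3′ in the sense of the transcript, with mm9 coordinates from those files. In the Pex11a stretch, from chr7:86882228-86882281 on the minus strand, the capitals mark the first stop codon of the frame that the stretch opens with. The first Eci2 probe spans an intron between chr13:35078026-35079366 on the minus strand, and the second lies at chr13:35069668-35069697. The stretches of Vnn1 (chr10:23624524-23624553, plus strand), Fgf21 (chr7:52869335-52869364, minus strand) and Cpt1b (chr15:89246866-89246895, minus strand) are the first 30 bases of their probes.
Pex11a: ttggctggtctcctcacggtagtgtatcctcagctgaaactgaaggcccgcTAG
Eci2, first probe: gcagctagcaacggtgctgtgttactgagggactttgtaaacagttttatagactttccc
Eci2, second probe: ctgtgccttttccttgattaacgtagcaat
Vnn1: ctgtttgtcaacagtggactcgggtgtaag
Fgf21: tttttgggtttccacttatttattacgggt
Cpt1b: ttggagagcgctgtccaacctctcatgtgc

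The acyl-CoA thioesterase genes Acot1 to Acot4 are neighbours on chromosome 12 and close paralogs, so signal could be shared between them. The longest run that any probe of one of them shared with a probe of another was 9 bases, a repeat marked in capitals in Acot2 and Acot3. The stretches lie on the plus strand at chr12:85358452-85358481 (Acot1), chr12:85334583-85334612 (Acot2), chr12:85400452-85400481 (Acot3) and chr12:85384821-85384850 (Acot4). Between the thiolase genes Acaa1a and Acaa1b the longest shared run was 6 bases. Probes were compared with probes only, not with the transcripts of the paralogs, so sharing of signal was not tested.
Acot1: tatcaaaatagtgctgattcaagggctggg
Acot2: gttgtcctctgACACACACAagtgcttgtg
Acot3: gtgtACACACACAcatatacacacaagcac
Acot4: tgctggatgacatgaaattcatgtttaggg

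With DDE in the diet, 14 of the 37 genes rose and 4 fell. Of all genes tested 24% rose and 26.3% fell in that comparison, and the median log2 change was 0.15 over the 37 genes and -0.024 over all genes. The calls of 11 rises and 2 falls held, where 18.6% and 10.5% of all genes did so. The rises that held were those of Cpt1a, Cpt2, Hadhb, Decr1, Eci1, Ehhadh, Acaa1a, Acaa1b, Vnn1, Angptl4 and Aldh3a2. The falls that held were those of Cpt1b and Pdk4. Most changes were small: Vnn1 alone rose by 1.5-fold or more and Cpt1b alone fell by as much, against 3.33% and 8.48% of all genes. The groups did not overlap for 17 of the 37 genes, against 46.4% of all genes: DDE lay wholly above control for 14 (22.3% of all genes) and wholly below for 3 (24.1%).

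When must was added to the DDE diet, none of the 37 genes rose and 23 fell, where 20.2% of all genes rose and 29.7% fell. In the limma fit 0 of the 37 were higher and 28 lower at an unadjusted p under 0.05, where 23.2% of all genes were higher and 32.9% lower. The median log2 change was -0.27 over the 37 genes and -0.04 over all genes. The call held for 11 falls, those of Crat, Eci2, Ehhadh, Pex11a, Acot1, Acot2, Pdk4, Vnn1, Fgf21, Angptl4 and Cd36, where 15.7% of all genes fell under all 6 scalings. The largest 7 passed 1.5-fold, against 8.18% of all genes, and they were not enzymes of the mitochondrial spiral: Pex11a, Fgf21, Angptl4, Acot1, Pdk4, Vnn1 and Cd36. No gene of the 37 rose by that much, against 2.92% of all genes. The groups did not overlap for 23 genes, against 44.7% of all genes: PXDDE lay wholly above DDE for 0 (18.3% of all genes) and wholly below for 23 (26.4%).

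In PXDDE against control, 5 of the 37 genes rose and 17 fell, where 31.6% of all genes rose and 39.3% fell. The median log2 change was -0.13 over the 37 genes and -0.058 over all genes. All 5 rises held, those of Ppara, Cpt2, Acaa1b, Vnn1 and Aldh3a2, where 27.2% of all genes rose under all 6 scalings. Of the 17 falls 6 held, those of Cpt1b, Eci2, Pex11a, Acot1, Pdk4 and Fgf21, where 19.6% of all genes did so. The same 6 genes were the ones that fell by 1.5-fold or more, against 21.6% of all genes, and none rose by as much, against 9.82%. The groups did not overlap for 22 of the 37 genes, against 65.2% of all genes: PXDDE lay wholly above control for 6 (28.9% of all genes) and wholly below for 16 (36.3%).

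**Figure D1:**
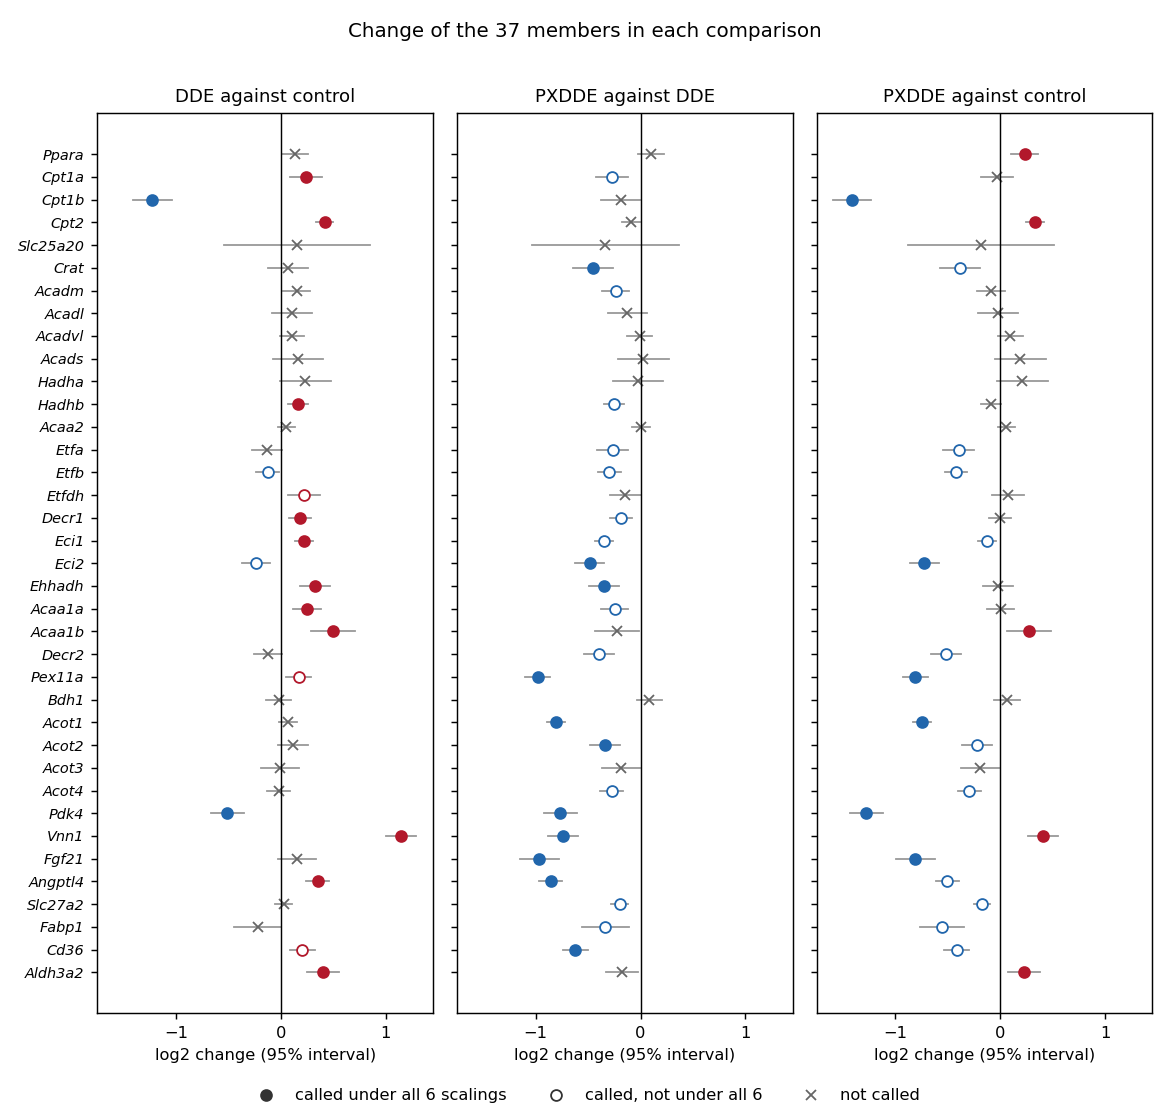
Log2 change of each of the 37 genes (rows) in the 3 comparisons, with its 95% interval from the limma fit over 12 arrays. Filled points are called under all 6 scalings (13, 11 and 11 genes), open points are called at the 75th percentile scaling but not under all 6, and crosses are not called. The long intervals belong to Slc25a20.

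How the arrays were scaled decided most of the small falls. With quantile normalisation, 5 of the 37 genes rose and 12 fell in PXDDE against DDE, and with the deposited table the counts were also 5 and 12. Centring each array on its median gave 3 and 14. Of all 18678 genes, these 3 settings called 4791, 4540 and 6476 higher and 4392, 4091 and 3295 lower. For PXDDE against control the same 3 settings gave 17 rises and 11 falls, 17 and 11, and 20 and 6, and the median of the 37 genes turned positive (0.087, 0.096 and 0.25). Over all 18678 genes the rises were then 7043, 6885 and 10315 and the falls 6154, 5946 and 3802. Cpt1a, Decr1, Etfdh and Acaa1a, not called in PXDDE against control with the 75th percentile, were called higher there under 4 of the 5 other scalings. Centring on the median shifted the median change of all genes to 0.21 in DDE against control, 0.10 in PXDDE against DDE and 0.32 in PXDDE against control. Rises then made up 81.3%, 66.3% and 73.1% of all called genes, against 47.7%, 40.6% and 44.5% with the 75th percentile. Relative to the median of all genes under the same scaling, the median of the 37 genes in PXDDE against DDE lay between -0.23 and -0.056 over the 6 scalings.

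**Figure D2:**
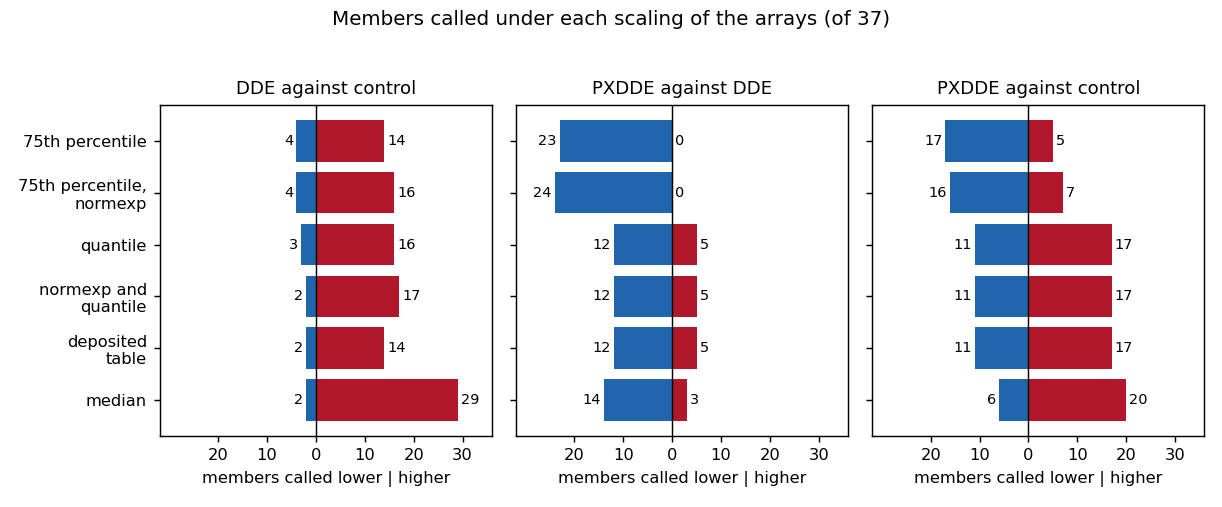
Number of the 37 genes called lower (blue, left of 0) and higher (red, right of 0) in each comparison under 6 scalings of the arrays. DDE against control keeps more rises than falls in every row, while PXDDE against control turns from 5 rises and 17 falls with the 75th percentile to 17 and 11 with quantile normalisation.

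On the levels defined above, the receptor gene itself changed little. Ppara was called there in PXDDE against control only, with means of 3.94 ± 0.099 (SD, n = 4) in control, 4.08 ± 0.056 in DDE and 4.18 ± 0.065 in PXDDE. Its log2 change of 0.23 (SE 0.057, adjusted p = 0.0032) held, at 0.24 to 0.61 under the other scalings. The change in DDE against control was 0.13, with a 95% interval from 0.0085 to 0.26 and an adjusted p of 0.071. It was called higher with normexp alone (0.15) and with median centring (0.36), but not under the remaining scalings. The change in PXDDE against DDE was 0.099, with an interval from -0.026 to 0.22. Under 4 of the 5 other scalings it was called higher, at 0.17 to 0.24, so these 2 non-calls depended on the scaling. A second Ppara probe gave 0.28, 0.14 and 0.41 for the 3 comparisons in that order.

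Of the secreted factors, Fgf21 encodes a fasting hormone of the liver and Angptl4 an inhibitor of lipoprotein lipase. Fgf21 read -1.07, -1.29, -1.28 and -1.33 on the control arrays, -1.12, -1.06, -1.09 and -1.08 on the DDE arrays and -1.87, -2.19, -2.21 and -1.94 on the PXDDE arrays. All 4 PXDDE arrays lay below all others, while control and DDE overlapped. Fgf21 fell 1.95-fold in PXDDE against DDE (log2 change -0.96, SE 0.083, adjusted p = 3.39e-06) and 1.75-fold in PXDDE against control (adjusted p = 4.24e-06), and both falls held. Its change of 0.16 in DDE against control was not called (adjusted p = 0.14). That non-call depended on the scaling. Fgf21 was called higher there with quantile normalisation (0.24), with normexp and quantile (0.18) and with median centring (0.39). Angptl4 read 6.27, 6.20, 6.16 and 6.17 in control, 6.66, 6.48, 6.59 and 6.47 in DDE and 5.64, 5.72, 5.69 and 5.72 in PXDDE. Its 3 groups did not overlap, with DDE on top and PXDDE at the bottom. Angptl4 rose 1.28-fold in DDE against control (log2 change 0.35, SE 0.051, adjusted p = 0.00016) and fell 1.81-fold in PXDDE against DDE (log2 change -0.86, adjusted p = 1.58e-07), and both calls held. Its fall in PXDDE against control (-0.50) was called with the 75th percentile, with and without normexp, but was not called under the others, where it ranged up to -0.053.

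Vnn1, which encodes a pantetheinase and is among the genes most responsive to PPARA in mouse liver, had the largest rise with DDE. It read 1.14, 1.31, 1.26 and 1.33 in control, 2.42, 2.51, 2.29 and 2.39 in DDE and 1.70, 1.70, 1.52 and 1.73 in PXDDE. The groups were fully apart, with PXDDE between the others. Vnn1 rose 2.21-fold in DDE against control (log2 change 1.14, SE 0.065, adjusted p = 1.18e-07), fell 1.67-fold in PXDDE against DDE (log2 change -0.74, adjusted p = 4.01e-06) and was 1.32-fold higher in PXDDE than in control (log2 change 0.40, adjusted p = 0.00016). All 3 calls held.

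Pdk4, whose product inactivates pyruvate dehydrogenase and so spares glucose, fell at each step. It read 0.92, 1.03, 0.98 and 0.93 in control, 0.24, 0.48, 0.62 and 0.48 in DDE and -0.22, -0.38, -0.31 and -0.32 in PXDDE. The groups did not overlap. The fall was 1.42-fold in DDE against control (log2 change -0.51, SE 0.072, adjusted p = 0.00015), 1.70-fold in PXDDE against DDE (-0.77, adjusted p = 6.65e-06) and 2.42-fold in PXDDE against control (-1.28, adjusted p = 3.35e-08), and all held. Pdk4 and Vnn1, both known PPARA targets, thus differed in sign with DDE. The summed level of the 16 skeletal muscle markers also stepped down, with means of 9.14 in control, 7.75 in DDE and 7.32 in PXDDE. Any part of muscle RNA in the Pdk4 values was not tested. Aldh3a2, a fatty aldehyde dehydrogenase, rose by 0.40 in DDE against control and by 0.23 in PXDDE against control (adjusted p = 0.0007 and 0.014), and both calls held.

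Cd36, a fatty acid transporter and scavenger receptor, read 2.39, 2.45, 2.43 and 2.32 in control, 2.49, 2.65, 2.66 and 2.61 in DDE and 2.08, 1.91, 1.94 and 2.00 in PXDDE. The groups did not overlap, though the lowest DDE array was close to the highest control array. The fall in PXDDE against DDE, 1.54-fold (log2 change -0.62, SE 0.055, adjusted p = 3.99e-06), held. The rise in DDE against control (0.21, adjusted p = 0.0088) was not called with quantile normalisation, with normexp and quantile, or with the deposited table, and the fall in PXDDE against control (-0.42) was not called with median centring. Cd36 is also made by macrophages and fat cells. Of 14 Kupffer cell and macrophage markers, 10 were lower in DDE than in control and 10 lower in PXDDE than in DDE, and of these 2 and 8 held. Their summed level lay between 6.75 and 6.82 in control, 6.43 and 6.52 in DDE and 6.04 and 6.11 in PXDDE. Of 10 adipocyte markers, 7 were lower in DDE than in control, and 5 were higher and 3 lower in PXDDE than in DDE. Their summed level lay between 7.18 and 7.25, 6.73 and 6.92 and 6.52 and 6.66 in the 3 groups. Pck1, by far the brightest of them, had group means of 6.85, 6.65 and 6.32 and dominates that sum. Among the 5 that rose in PXDDE against DDE, Adipoq had means of -0.48, -2.48 and -0.78. Those of Cfd were 4.30, 1.78 and 2.73. The part of macrophages and fat cells in the values of Cd36 and Angptl4 was not tested. In bulk RNA fewer cells of a type and less RNA per cell cannot be told apart.

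The other uptake and binding genes moved less. Slc27a2, a very long chain acyl-CoA synthetase, had a mean of 8.58 ± 0.014 (SD, n = 4) in DDE and 8.38 ± 0.040 in PXDDE. Its fall of 0.20 on the log2 scale (adjusted p = 0.0008) turned to a change of 0.087 with normexp and quantile and of 0.072 with the deposited table. Fabp1, the liver fatty acid binding protein, had a mean of 9.44 ± 0.16 (n = 4) in control, 9.22 ± 0.026 (n = 3, as the spot of DDE replicate 1 was marked an outlier and left out) in DDE and 8.88 ± 0.16 (n = 4) in PXDDE. Its change was -0.34 in PXDDE against DDE (adjusted p = 0.018) and -0.56 in PXDDE against control (adjusted p = 0.00031). Neither call held, and the former turned to 0.032 with the deposited table. With the outlier spot kept the former was -0.25 and not called (adjusted p = 0.075).

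In the carnitine shuttle, Cpt1a makes acylcarnitine at the outer mitochondrial membrane in liver, and Cpt1b is the isoform of muscle, heart and brown fat. Cpt1a rose by 0.24 in DDE against control (SE 0.07, adjusted p = 0.015), and the call held. Its change in PXDDE against DDE was -0.27 (adjusted p = 0.0079) but 0.0063 with normexp and quantile and 0.007 with the deposited table. Cpt1b read -0.72, -0.89, -0.89 and -0.81 in control, -2.10, -2.16, -2.07 and -1.86 in DDE and -2.30, -2.12, -2.42 and -2.11 in PXDDE. Every control array lay above every other array, while DDE and PXDDE overlapped. Cpt1b fell 2.33-fold in DDE against control (log2 change -1.22, SE 0.084, adjusted p = 5.32e-07) and 2.66-fold in PXDDE against control (-1.41, adjusted p = 4.77e-08), and both falls held.

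Against control, Cpt1b and the skeletal muscle markers were lower in both treated groups. These 16 markers, all well above background, summed to between 9.10 and 9.16 on the control arrays, 7.70 and 7.82 on the DDE arrays and 7.28 and 7.38 on the PXDDE arrays. All 16 fell in both DDE and PXDDE against control, and every one of these falls held. The myosin light chain gene Mylpf changed by -1.58 and -2.20. Of 7 heart markers 6 fell in DDE against control, of which 4 held, and of 5 brown fat markers 5 fell and held. Between PXDDE and DDE, where Cpt1b was not called (-0.19, adjusted p = 0.081), 15 of the 16 muscle markers were lower (median -0.42), of which 11 held, and brown fat markers were higher for 2 and lower for 3. Among brown fat markers Dio2 and Zic1 were not well above background on any array. Any part of muscle, heart or brown fat RNA in the Cpt1b values was not tested.

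Cpt2, the carnitine palmitoyltransferase of the inner membrane, read 5.31, 5.28, 5.25 and 5.20 in control, 5.72, 5.68, 5.69 and 5.63 in DDE and 5.62, 5.57, 5.58 and 5.60 in PXDDE. The 3 groups did not overlap, and both treated groups were above control. Cpt2 rose 1.34-fold in DDE against control (log2 change 0.42, SE 0.038, adjusted p = 5.39e-06) and 1.26-fold in PXDDE against control (0.33, adjusted p = 1.13e-05), and both calls held. It was not called in PXDDE against DDE (-0.089, adjusted p = 0.072) and the sign turned with quantile normalisation (0.19), with normexp and quantile (0.17) with the deposited table (0.16) and with median centring (0.054). Under the first 3 of these settings Cpt2 was called higher. A second Cpt2 probe gave 0.91, 0.30 and 1.21 in DDE against control, PXDDE against DDE and PXDDE against control. Crat, a carnitine acetyltransferase, fell 1.37-fold in PXDDE against DDE (-0.45, adjusted p = 0.0012), which held. Its change in PXDDE against control, -0.38, shrank to -0.0088 with median centring. Slc25a20, the carnitine-acylcarnitine carrier, was not called in any comparison, and its levels spread from 0.62 to 1.78 within the control group.

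The 7 genes of the mitochondrial spiral changed by small amounts. In DDE against control their log2 changes lay between 0.054 and 0.23, and Hadhb, a subunit of the trifunctional protein, was the 1 gene called (0.16, SE 0.044, adjusted p = 0.0085). That call was lost when the probes of the gene were averaged (0.055, adjusted p = 0.50). Of all genes 24% rose and 26.3% fell in that comparison. Acadm and Acadvl stayed uncalled there under only 1 of the 5 other scalings and Acaa2 under 2. Under the rest they were called higher, at up to 0.38, 0.34 and 0.29. Between PXDDE and DDE the changes lay between -0.25 and 0.025. Here the medium-chain dehydrogenase Acadm (-0.24, adjusted p = 0.0064) and Hadhb (-0.25, adjusted p = 0.0006) were called lower, but the values turned to 0.0088 and 0.044 with quantile normalisation. Among all genes 20.2% rose and 29.7% fell between these groups. Acadvl and Acaa2 stayed uncalled here under only 2 and 1 of the 5 other scalings. Under the rest they were called higher, at up to 0.29 and 0.25. In PXDDE against control 0 of the 7 were called in the limma fit, also at an unadjusted p under 0.05, with changes between -0.088 and 0.21. Of all genes 31.6% rose and 39.3% fell there, and 32.6% and 40.4% did so at the unadjusted threshold. The very-long-chain dehydrogenase Acadvl, at 0.095 in that comparison, was called higher under each of the 5 other scalings, at 0.12 to 0.53. Acadm, Acads, Hadhb and Acaa2 were called higher there under 4 of these 5, at up to 0.29, 0.56, 0.32 and 0.43. The long-chain and short-chain dehydrogenases Acadl and Acads, the other trifunctional subunit Hadha and the thiolase Acaa2 were not called in any comparison with the 75th percentile scaling.

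Hadhb read 5.91, 5.83, 5.85 and 5.79 in control, 6.002, 6.02, 5.99 and 6.03 in DDE and 5.83, 5.75, 5.68 and 5.79 in PXDDE. The DDE arrays stood above the others, which overlapped. A Hadhb probe assigned to another transcript gave -0.28, -0.73 and -1.001 in the 3 comparisons, in the order DDE against control, PXDDE against DDE and PXDDE against control. Another probe of the transcript used gave 0.28, -0.11 and 0.17. These 2 probes were called in opposite directions in PXDDE against control (adjusted p = 1.31e-05 and 0.048 over all probes). The direction of Hadhb in PXDDE against control thus differed between its probes.

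Electrons from the acyl-CoA dehydrogenases pass through the flavoprotein made by Etfa and Etfb to the dehydrogenase made by Etfdh. Etfa changed by -0.27 in PXDDE against DDE and by -0.40 in PXDDE against control (adjusted p = 0.0056 and 0.00019). These falls turned to 0.06 and 0.087 with quantile normalisation. Etfb changed by -0.13, -0.30 and -0.42 in the 3 comparisons (adjusted p = 0.049, 0.00044 and 1.11e-05). None of these held, and the first, in DDE against control, was lost when any 1 control array was left out. Without control replicate 4 its adjusted p was 0.11. It also lost its call without any 1 of DDE replicates 2, 3 and 4 and PXDDE replicates 2 and 3, with the value staying between -0.14 and -0.11, and with the slide as a block (-0.13, adjusted p = 0.10).

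Etfdh read 5.24, 5.20, 5.19 and 5.02 in control, 5.29, 5.39, 5.49 and 5.38 in DDE and 5.38, 5.18, 5.14 and 5.26 in PXDDE. The DDE arrays lay above all control arrays and overlapped with PXDDE. Etfdh rose by 0.22 in DDE against control (adjusted p = 0.019), a call lost with the deposited table and without control replicate 4 (0.17, adjusted p = 0.053) or DDE replicate 3 (0.19, adjusted p = 0.058). Averaged over both probes of the gene the change was 0.0047 (adjusted p = 0.94). A second Etfdh probe, of another transcript, gave -0.21, -0.66 and -0.87 in the 3 comparisons.

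Unsaturated fatty acids need auxiliary enzymes, among them the dienoyl-CoA reductase Decr1 and the enoyl-CoA isomerases Eci1 and Eci2. Decr1 and Eci1 rose by 0.18 and 0.22 in DDE against control (adjusted p = 0.0077 and 0.00082), and both calls held. Between PXDDE and DDE they changed by -0.19 and -0.35, but with the deposited table by 0.10 and -0.035. Eci1 changed by -0.13 in PXDDE against control, and with quantile normalisation by 0.35.

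Eci2 stood apart from these. It read 8.998, 8.88, 8.84 and 8.72 in control, 8.57, 8.68, 8.59 and 8.66 in DDE and 8.20, 8.08, 8.20 and 8.07 in PXDDE. The groups were stepwise lower without overlap. Eci2 fell 1.40-fold in PXDDE against DDE (log2 change -0.49, SE 0.062, adjusted p = 6.65e-05) and 1.65-fold in PXDDE against control (-0.72, adjusted p = 8.89e-07), and both calls held. Its change in DDE against control, -0.24 (adjusted p = 0.0076), did not hold. The first Eci2 probe printed above spans an intron. It gave -0.31 in DDE against control, -1.03 in PXDDE against DDE and -1.34 in PXDDE against control. These falls were larger than those of the second probe, which is the one used here. Eci3, a gene of similar name on the mitochondrial list read below, changed by -0.36 (not called), -1.30 and -1.66 in the same order. Whether the Eci2 probes also take up Eci3 signal was not tested.

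**Figure D3:**
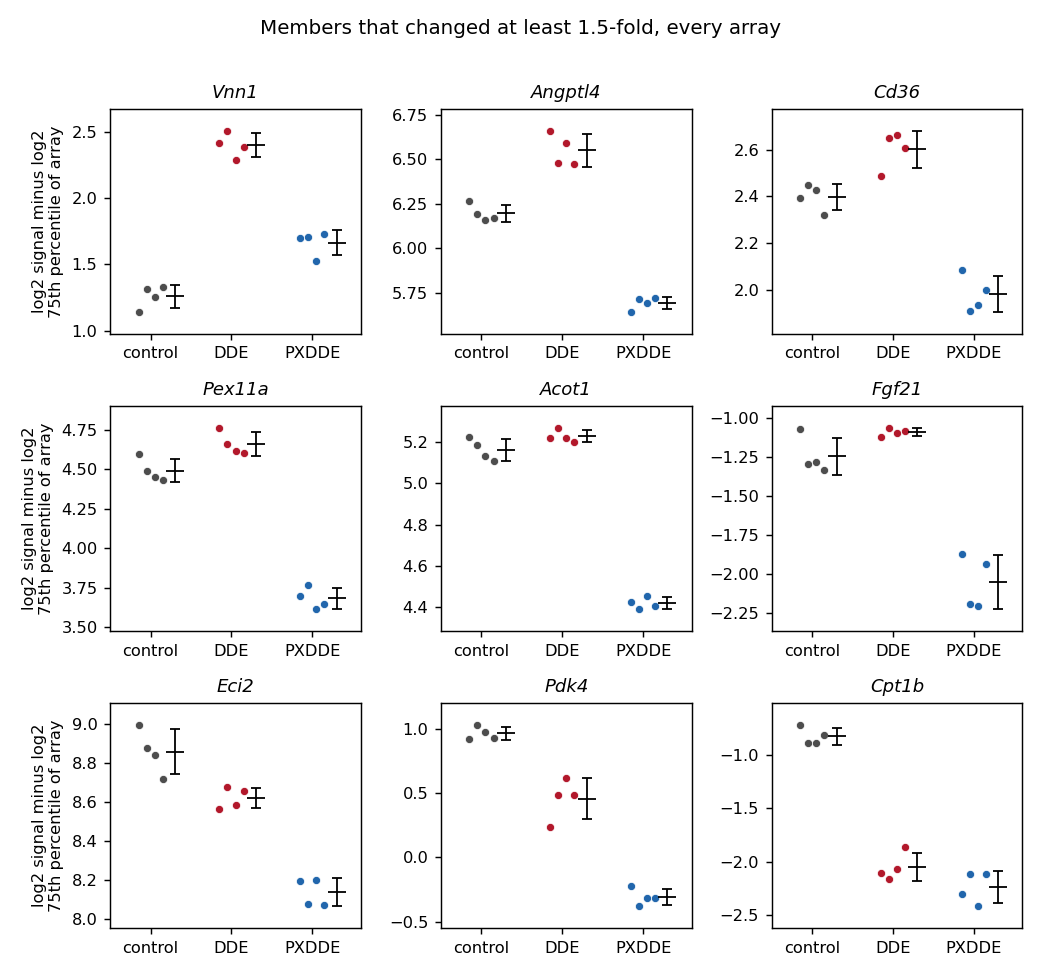
Level on each array (points; log2 signal relative to the 75th percentile of its array, as log2 units) of the 9 genes that changed by 1.5-fold or more in any comparison, with the mean and SD of each group (black, n = 4). Vnn1, Angptl4 and Cd36 are highest in DDE, Pex11a, Acot1 and Fgf21 are lowest in PXDDE, Eci2 and Pdk4 step down from control to PXDDE, and Cpt1b is highest in control. The vertical axes do not start at 0 and differ between panels.

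Among peroxisomal genes, Pex11a encodes a membrane protein that drives the division of peroxisomes, and Ehhadh, Acaa1a and Acaa1b encode the bifunctional enzyme and thiolases of the peroxisomal spiral. Pex11a read 4.60, 4.49, 4.45 and 4.44 in control, 4.76, 4.66, 4.62 and 4.60 in DDE and 3.70, 3.77, 3.62 and 3.65 in PXDDE. All PXDDE arrays lay far below the rest, and control and DDE were next to each other. Pex11a fell 1.97-fold in PXDDE against DDE (log2 change -0.98, SE 0.055, adjusted p = 9.59e-08), the largest fall of the 37 genes in that comparison, and 1.75-fold in PXDDE against control (-0.81, adjusted p = 1.31e-07). Both falls held. The rise in DDE against control (0.17, adjusted p = 0.023) did not hold, and it lost its call without control replicate 3 (0.16), control replicate 4 (0.15) or DDE replicate 1 (0.13), and with the slide as a block (0.16, adjusted p = 0.069).

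The 3 enzymes all rose with DDE, and all 3 calls held: Ehhadh by 0.33, Acaa1a by 0.25 and Acaa1b by 0.50 on the log2 scale (adjusted p = 0.0017, 0.0046 and 0.0012). Ehhadh fell by 0.35 in PXDDE against DDE (adjusted p = 0.0011), which held, with the highest adjusted p of 0.04 over the other scalings. Acaa1a changed by -0.25 there, but by 0.0044 with normexp and quantile and by 0.036 with the deposited table. Acaa1b stayed 1.21-fold above control in PXDDE (log2 change 0.28, adjusted p = 0.022). That call held across scalings but was lost without control replicate 3 (0.24), PXDDE replicate 2 (0.25) or PXDDE replicate 4 (0.22). Decr2, the peroxisomal dienoyl-CoA reductase, changed by -0.40 in PXDDE against DDE and by -0.52 in PXDDE against control (adjusted p = 0.00051 and 3.23e-05), where PXDDE had n = 3 because the spot of replicate 3 was left out as an outlier. Neither call held, with values up to -0.096 and -0.046.

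The thioesterases, which split acyl-CoA back to free fatty acid and coenzyme A, were not called with DDE. The count in DDE against control was 0 of 4 in the limma fit, where 24% of all genes rose and 26.3% fell. It was also 0 at an unadjusted p under 0.05, where 26.8% of all genes were higher and 29.7% lower. Each stayed uncalled under 4 of the 5 other scalings. With median centring Acot1 to Acot4 were called higher (0.30, 0.35, 0.22 and 0.21), where 9019 of all 18678 genes rose. Acot1, the cytosolic enzyme, read 5.22, 5.19, 5.13 and 5.11 in control, 5.22, 5.27, 5.22 and 5.20 in DDE and 4.43, 4.39, 4.45 and 4.41 in PXDDE. The PXDDE arrays lay together well below the other 8. Acot1 fell 1.75-fold in PXDDE against DDE (log2 change -0.81, SE 0.039, adjusted p = 3.19e-08) and 1.67-fold in PXDDE against control (-0.74, adjusted p = 1.98e-08), and both falls held.

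Acot2, the mitochondrial enzyme, fell 1.27-fold in PXDDE against DDE (-0.34, adjusted p = 0.0011), which held, while its change of -0.22 against control turned to 0.15 with median centring. Acot3, a peroxisomal enzyme, read 2.42, 2.49, 2.31 and 2.58 in control, 2.54, 2.34, 2.43 and 2.47 in DDE and 2.23, 2.38, 2.05 and 2.38 in PXDDE. These groups overlapped and Acot3 was not called, with a change of -0.18 in PXDDE against DDE on the probe used and 0.024 on the other, whose first bases are printed above. Acot4, also peroxisomal, read 1.24, 1.20, 1.27 and 1.13 in control, 1.09, 1.18, 1.27 and 1.21 in DDE and 0.88, 0.92, 0.88 and 0.98 in PXDDE. Its PXDDE arrays lay below the others. Acot4 changed by -0.27 in PXDDE against DDE and by -0.29 in PXDDE against control (adjusted p = 0.00091 and 0.00027). These calls were lost with median centring, where the latter turned to 0.08, and a second Acot4 probe gave -0.16 and -0.014.

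Bdh1, which interconverts acetoacetate and beta-hydroxybutyrate in mitochondria, read 5.82, 5.88, 5.77 and 5.84 in control, 5.88, 5.77, 5.82 and 5.76 in DDE and 5.88, 5.88, 5.78 and 6.02 in PXDDE. The groups overlapped on these levels, those of the probe used, and Bdh1 was not called on them. Its change had a 95% interval from -0.14 to 0.10 in DDE against control and from -0.035 to 0.20 in PXDDE against DDE. Under 4 of the other 5 scalings Bdh1 was called higher in PXDDE against DDE, at up to 0.40. The same scalings called it higher in PXDDE against control, at up to 0.46. Another Bdh1 probe was called higher in PXDDE against DDE (0.14, adjusted p = 0.036 over all probes). It was also called higher in PXDDE against control (0.15, adjusted p = 0.016) but not in DDE against control (0.011).

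**Figure D4:**
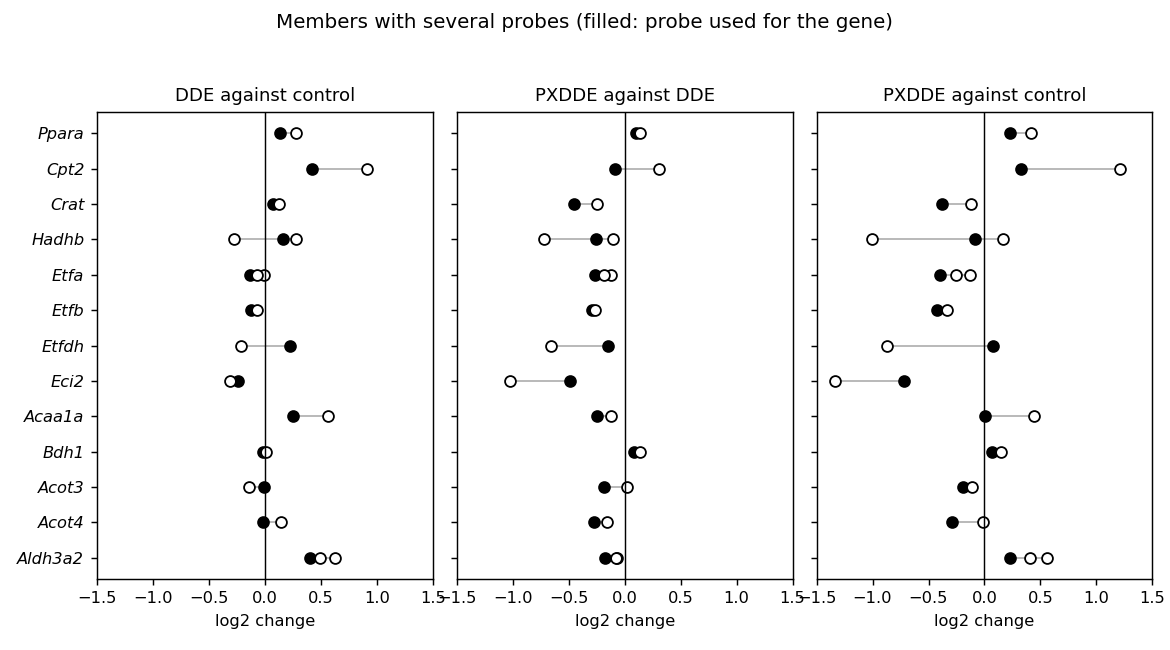
Log2 change on every probe well above background of the 13 genes with several probes, in the 3 comparisons. The filled point is the probe used for the gene. In at least 1 comparison the probes of Hadhb, Etfdh, Cpt2, Bdh1, Acot3 and Acot4 lie on both sides of 0, and the Eci2 probes differ in size throughout.

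Genes of the same pathways outside the 37 were read from lists of mitochondrial, peroxisomal and ketone genes, regulators and other PPARA targets. Their counts stand against 24% of all genes that rose and 26.3% that fell in DDE against control, 20.2% and 29.7% in PXDDE against DDE, and 31.6% and 39.3% in PXDDE against control. Of 28 further genes on the mitochondrial list, 14 rose and 4 fell in DDE against control. In PXDDE against DDE 10 rose and 8 fell, and in PXDDE against control 17 rose and 5 fell. Of these calls 11 rises and 0 falls, 10 and 5, and 16 and 3 held. The list also held genes outside mitochondrial oxidation, among them Acaca, Acacb and Slc22a5. Their rises, given below, are part of these counts. Acsl1, the acyl-CoA synthetase that activates long chains, rose by 0.43 with DDE (adjusted p = 5.64e-06) and fell by 0.39 in PXDDE against DDE (adjusted p = 1.2e-05), and both calls held. The acetyl-CoA carboxylase genes, whose product malonyl-CoA inhibits the carnitine shuttle, rose in PXDDE against DDE: Acaca by 1.15 and Acacb by 0.97 (adjusted p = 2.67e-09 and 3.37e-07). They also rose in PXDDE against control, by 1.07 and 0.70, and all 4 calls held. Acsm3, a medium-chain acyl-CoA synthetase, fell by 1.38 in PXDDE against DDE (adjusted p = 2.69e-09), which held. Mlycd, the malonyl-CoA decarboxylase, rose by 0.37 in DDE against control (adjusted p = 0.018), and Slc22a5, the carnitine carrier of the cell membrane, by 0.69 (adjusted p = 2.9e-06), and both calls held. Hadh was not called in any comparison, and the changes of Echs1 and Ech1 in PXDDE against DDE, -0.14 and -0.24, turned sign under other scalings.

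Of 26 further peroxisomal genes, 13 rose and 3 fell in DDE against control, 4 rose and 9 fell in PXDDE against DDE, and 15 rose and 9 fell in PXDDE against control. Of these calls 12 rises and 1 fall, 4 and 6, and 13 and 3 held. Hsd17b4, the other bifunctional enzyme, rose by 0.41 with DDE (adjusted p = 3.14e-05), and the call held. Crot, the carnitine octanoyltransferase of peroxisomes, fell 1.51-fold in PXDDE against DDE (-0.59, adjusted p = 1.5e-06), and Acot5, a further thioesterase, by 0.70 (adjusted p = 2.14e-07), and both falls held. Abcd2, a peroxisomal acyl-CoA transporter, fell by 0.97 in DDE against control and by 1.28 in PXDDE against DDE (adjusted p = 6.01e-06 and 6.24e-07), and both held.

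Of 9 ketone genes, 4 rose and 1 fell in DDE against control, 3 rose and 3 fell in PXDDE against DDE, and 4 rose and 2 fell in PXDDE against control. Here 3 rises and 0 falls, 3 and 2, and 4 and 1 held. Acat1, the mitochondrial thiolase that makes acetoacetyl-CoA, fell by 0.48 in PXDDE against DDE and by 0.62 in PXDDE against control (adjusted p = 3.63e-06 and 1.44e-07), and both held. Aacs, which returns acetoacetate to lipid synthesis, rose by 1.03 in PXDDE against DDE (adjusted p = 5.9e-08), which held.

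Of 27 regulators, 11 rose and 4 fell in DDE against control, 9 rose and 7 fell in PXDDE against DDE, and 15 rose and 8 fell in PXDDE against control. Here 9 rises and 1 fall, 9 and 2, and 15 and 4 held. Rxra, the DNA-binding partner of PPARA, rose by 0.24 in DDE and by 0.27 in PXDDE against control (adjusted p = 0.0014 and 0.0003), and both held. The coactivator gene Ppargc1a fell by 0.74 in PXDDE against control (adjusted p = 9.08e-05), which held. Lpin1, which works with that coactivator, fell by 0.73 in PXDDE against DDE (adjusted p = 8.54e-08), which held.

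Of 33 other PPARA targets, 12 rose and 13 fell in DDE against control, 8 rose and 11 fell in PXDDE against DDE, and 11 rose and 16 fell in PXDDE against control. The calls that held were 10 rises and 6 falls, 8 and 7, and 9 and 7, so the excess of falls in PXDDE against control depended on the scaling. The fatty acid hydroxylase gene Cyp4a14 fell 2.25-fold in DDE against control and 2.01-fold in PXDDE against control (log2 changes -1.17 and -1.01, adjusted p = 2.31e-05 and 2.67e-05), and both held. Cyp4a10 changed by -0.15 in DDE against control and was not called. The Cyp4a genes of this list did not move together. In control, DDE and PXDDE the means were 3.17, 4.09 and 4.63 for Cyp4a12a and 4.47, 5.40 and 5.97 for Cyp4a12b. Those of Cyp4a31 were 6.68, 6.49 and 6.34. Cyp4a14 was the dimmest of these genes, with means of -2.11, -3.29 and -3.12. The lipid droplet gene Plin2 rose by 0.26 in DDE against control (adjusted p = 0.0057), and the lipase inhibitor G0s2 fell by 1.02 in PXDDE against DDE (adjusted p = 4.24e-08), and both calls held. Plin4, a droplet protein that fat cells also make, fell by 1.34 in DDE against control and rose by 0.73 in PXDDE against DDE (adjusted p = 4.36e-10 and 6.7e-08), and both calls held. Of the 10 adipocyte markers given with Cd36, 7 were lower in DDE than in control, and their part in the Plin4 values was not tested.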

How the data were processed

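Processed signal intensity per spot was deposited by the authors, background-corrected and detrended per the file headers. Agilent Feature Extraction 11.5.1.1 is named by the submitters' processing notes, as are RMA and, separately, limma. A table of log2 values was also deposited by the authors, with steps not given in the sources used here. Its columns correlated with the log2 signals of their arrays at 0.995 to 0.996 and had medians of 5.32 to 5.35, so scale and direction were set from the data and the centring stays unknown.

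From these, log2 processed signal minus the 75th percentile of each array was computed, outlier spots were left out, and a probe was kept where every array of 1 or more groups had it well above background (27098 of 56605). Each gene was represented by its brightest probe. Probes follow the laboratory mouse genome, and how far Mus spretus differs under them was not examined. Their number per group, 4 arrays, limits the precision. The group was the only term in limma 3.58.1 (R 4.3.3, data.table package 1.17.8), with 9 residual degrees of freedom and Benjamini-Hochberg adjustment over 18678 genes. The fit was checked on simulated data. The other 5 scalings were quantile normalisation, normexp (offset 50) with the 75th percentile, normexp with quantile, the deposited values and median centring. Further alternatives are given at the end.

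The genes and lists were chosen with earlier results of these data known. The rule for names took all 37 genes. From the pathway lists it took 16 genes whatever their values and, per list, the 2 called genes with the smallest p in each comparison. From each marker list it took the 2 with the largest change. Some genes under this rule are not reported here. Gene names and mm9 coordinates are those of the scanner files, and promoters and proteins were not analysed here.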

Additional observations from a re-analysis of the deposited data

Results flagged for a closer look

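Dixon's test at the 95% level was applied to the 4 arrays of each group for each of the 37 genes, 109 groups in all, and 6 had an array far from the other 3. Chance gives about 1 in 20. Slc25a20 read 0.617 in control replicate 1 against 1.69 to 1.78 in the others. Acadm read 5.52 in PXDDE replicate 1 against 5.31 to 5.34. Ehhadh read 4.37 in control replicate 4 against 4.19 to 4.21. Acot2 read 2.91 in DDE replicate 1 against 3.09 to 3.11. Vnn1 read 1.52 in PXDDE replicate 3 against 1.70 to 1.73. Aldh3a2 read 4.70 in PXDDE replicate 1 against 4.55 to 4.57.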

How the results depend on the processing

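Of 63 called results of single genes among the 37, 33 kept their call and direction in all 26 alternatives. Counting a sign as turned only where the result was called with the 75th percentile or under the alternative, the 5 other scalings gave 63 of 64 turned signs of single genes, and leaving out 1 array gave 0 of 1332. Values near 0 that were called under neither setting changed sign more often, with an array left out too (Slc25a20 in DDE against control, -0.13 without control replicate 1). In DDE against control, median centring gave 29 rises and 2 falls (median 0.38), normexp and quantile 2 falls (median 0.12), the deposited values 2 falls, array weights 7 falls and the mean of a gene's probes a median of 0.12. Of all 18678 genes, the first 4 of these settings gave 2078, 4411, 4126 and 5485 falls, and median centring gave 9019 rises. In PXDDE against DDE, quantile normalisation, normexp and quantile, and the deposited values each gave 5 rises and 12 falls (medians -0.043, -0.044 and -0.031), median centring 3 and 14 (-0.12) and normexp a median of -0.23. In PXDDE against control, the first 3 of these each gave 17 rises and 11 falls (0.087, 0.086 and 0.096), median centring 20 and 6 (0.25), normexp a median of -0.068 and the mean of a gene's probes -0.15. With 1 array left out, rises, falls and the median ranged from 12 to 16, 3 to 4 and 0.13 to 0.15 in DDE against control. They ranged from 0 to 0, 23 to 25 and -0.27 to -0.23 in PXDDE against DDE, and from 4 to 6, 17 to 18 and -0.14 to -0.089 in PXDDE against control. Replicate numbers did not pair the arrays (correlations of same-numbered deviations from -0.37 to 0.13). With a replicate block the counts were 14 and 3, 0 and 23, and 5 and 18, and Etfb in DDE against control lost its call. With a slide block the medians were 0.13, -0.26 and -0.093. Total counts over the 123 further pathway genes were taken with quantile normalisation, median centring and the deposited values, while their single calls were compared over all 6 scalings. Median centring gave 91 rises and 8 falls in DDE against control, 58 and 24 in PXDDE against DDE and 18 falls in PXDDE against control. In PXDDE against DDE quantile normalisation gave 56 and 25, and the deposited values 55 rises. The lists of genes that follow keep to signs turned in that sense. Quantile normalisation turned the sign, in DDE against control, of Etfb 0.063. Normexp and quantile turned the sign, in DDE against control, of Etfb 0.026. Median centring turned the sign, in DDE against control, of Etfb 0.10, Bdh1 0.21, Acot3 0.22 and Acot4 0.21. Quantile normalisation turned the sign, in PXDDE against DDE, of Cpt2 0.19, Acadm 0.0088, Acadvl 0.29, Hadhb 0.044, Etfa 0.060 and Decr1 0.070. Normexp and quantile turned the sign, in PXDDE against DDE, of Cpt1a 0.0063, Cpt2 0.17, Acadm 0.042, Acadvl 0.26, Hadhb 0.069, Etfa 0.052, Decr1 0.074, Acaa1a 0.0044 and Slc27a2 0.087. The deposited values turned the sign, in PXDDE against DDE, of Cpt1a 0.0070, Cpt2 0.16, Acadm 0.037, Acadvl 0.29, Hadhb 0.048, Etfa 0.052, Decr1 0.10, Acaa1a 0.036, Slc27a2 0.072 and Fabp1 0.032. Quantile normalisation turned the sign, in PXDDE against control, of Cpt1a 0.21, Acadm 0.18, Hadhb 0.29, Etfa 0.087, Etfb 0.021, Decr1 0.41, Eci1 0.35 and Slc27a2 0.15. Normexp and quantile turned the sign, in PXDDE against control, of Cpt1a 0.28, Acadm 0.26, Hadhb 0.32, Etfa 0.086, Decr1 0.43, Eci1 0.35 and Slc27a2 0.20. The deposited values turned the sign, in PXDDE against control, of Cpt1a 0.24, Acadm 0.22, Hadhb 0.26, Etfa 0.096, Decr1 0.41, Eci1 0.40 and Slc27a2 0.24. Median centring turned the sign, in PXDDE against control, of Cpt1a 0.34, Acadm 0.29, Acadl 0.35, Hadhb 0.29, Decr1 0.37, Eci1 0.25, Ehhadh 0.35, Acot2 0.15, Acot4 0.080 and Slc27a2 0.20. The mean of a gene's probes gave -0.40 for Etfdh in PXDDE against control. The shift between scalings follows from their construction, and which scaling is right for these arrays was not tested.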
